A study of Rattus norvegicus with 24 samples.

Results

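The transcripts of 5 genes of injured and remodelling kidney were followed: Timp1, Spp1, Clu, Mgp and Vim. They were taken by the gene symbol of the platform annotation, which lists them at 10 probe IDs, of which 5 (1 for each gene) held values, out of 1561 probes with a value (1313 genes with a single symbol) in all. Timp1, Spp1, Clu and Mgp encode secreted proteins, while Vim encodes a filament inside the cell, so only 4 of the 5 fit a heading of secreted proteins. The genes were chosen by their measured ratios on these arrays, which stood above 0 in the diet comparison of strain SS and below 0 in the strain comparison on high salt. Their values in those comparisons, and in anything computed from them, are therefore given as a description, without a test.

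RNA of rat kidney was compared on 24 arrays with 2 colours, each hybridised with 2 RNAs, after 2 weeks on high salt (HS) or low salt (LS). The 4 comparisons were HS over LS in strain 13, HS over LS in strain SS, strain 13 over SS on HS and strain 13 over SS on LS, with 3 replicates each and a forward and a dye-swap array for each replicate. SS is the salt-sensitive Dahl rat and strain 13 an SS rat that carries chromosome 13 of another strain; these readings, and that of HS and LS as diets, come from what is known of the study, so all groups share the SS background. Titles of 5 of the 6 SS diet arrays name no strain and were taken as SS because the strain 13 titles name theirs; the remaining one starts as a strain 13 title does, but its channel text names SS. A strain 13 title carries no replicate number and was counted as replicate 1. Age, sex and the number of animals behind each RNA were not given. Nothing says that replicates are separate animals, so the p-values reflect only the scatter of these samples and part of it could be technical.

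All values are deposited log ratios of a base that no source used here states, so no fold is given. Reading them as HS over LS and as strain 13 over SS is likely right but not settled. The reading rests on 13 titles that name the channels, only 1 of them of the 12 diet arrays, and all 24 titles name LS before HS. If it is wrong, every sign below turns at once. The labels say kidney and the title of the series names renal medullary genes. Ratios hold no level, so the tissue could not be checked, but values were present for 11 of 22 listed proximal tubule markers, 3 of 8 of the thick ascending limb and distal tubule and 4 of 10 of the collecting duct. In bulk RNA, fewer cells of a type and less RNA per cell cannot be told apart.

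The extracellular matrix of the kidney is built by fibroblasts and related cells and is kept in balance by proteases and their inhibitors. Timp1 encodes an inhibitor of the matrix metalloproteinases, and its transcript is a common sign of tissue remodelling. Spp1 encodes osteopontin, a phosphorylated matrix protein that binds integrins and CD44 and is made by tubule cells and macrophages. Clu encodes clusterin, a secreted chaperone known to rise in injured tubules. Mgp encodes a matrix protein with carboxylated glutamates that holds back calcification of vessels and cartilage. Vim encodes vimentin, the intermediate filament of fibroblasts, endothelium and other mesenchymal cells, which tubule cells take on after injury.

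None of the 5 genes lies on chromosome 13, the substituted chromosome: the RefSeq table of assembly GRCr8 places Timp1 on chromosome X, Spp1 on 14, Clu on 15, Mgp on 4 and Vim on 17. The 250 bases before the start of Timp1, Spp1 and Vim are printed to show the proximal sequence beside the ratios; these are the 3 of the 5 genes matched in RefSeq's promoter table, and Clu and Mgp were not matched. The sequences are RefSeq's, for GRCr8, 5′ to 3′ on the strand of the gene, and come from chrX:3771123-3771372 (minus), chr14:5619805-5620054 (minus) and chr17:81577011-81577260 (plus). Capitals mark matches on either strand to any of the motifs searched. TATAAA is the core of a promoter element that sits before many start sites. TGAGTAA is a site of the AP-1 type. GGGCGG is the core of a site for Sp1 and reads CCGCCC on the opposite strand.
Timp1: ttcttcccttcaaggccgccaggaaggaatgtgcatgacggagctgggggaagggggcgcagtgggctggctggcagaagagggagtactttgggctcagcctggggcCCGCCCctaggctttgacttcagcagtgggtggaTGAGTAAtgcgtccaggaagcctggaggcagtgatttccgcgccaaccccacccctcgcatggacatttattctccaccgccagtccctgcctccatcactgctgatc
Spp1: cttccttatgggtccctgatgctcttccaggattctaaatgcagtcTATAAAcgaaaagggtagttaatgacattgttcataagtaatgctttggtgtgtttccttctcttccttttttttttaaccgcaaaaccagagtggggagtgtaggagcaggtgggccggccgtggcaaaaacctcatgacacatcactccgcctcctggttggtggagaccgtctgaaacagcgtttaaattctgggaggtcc
Vim: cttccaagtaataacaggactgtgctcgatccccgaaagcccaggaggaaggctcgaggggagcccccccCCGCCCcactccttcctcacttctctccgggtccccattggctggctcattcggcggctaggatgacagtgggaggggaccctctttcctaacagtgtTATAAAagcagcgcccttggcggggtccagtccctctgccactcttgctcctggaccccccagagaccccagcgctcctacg

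The Timp1 stretch held TGAGTAA from position -108 and GGGCGG from -142, counted back from the start of the gene. TGAGTAA occurs in 2.4% and GGGCGG in 30.5% of the 33469 stretches of this length in the table. The Spp1 stretch held TATAAA from -204 and the Vim stretch TATAAA from -82, letters found in 12.9% of all stretches, and Vim also held GGGCGG from -180. The consensus AP-1 letters TGANTCA, present in 6.3% of all stretches, were in none of the 3. No motif searched was common to the 3 genes. Whether any of these matches works as a promoter element or binding site was not tested. Timp1 and Vim were rich in G and C (61.2% and 62.4%) and Spp1 was not (46.8%), against a median of 51.2%.

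The diet comparisons ask how each transcript stands on HS relative to LS in the strain with the substituted chromosome and in SS. All 5 genes had positive mean ratios in both strains, and every mean was smaller in strain 13. The median over the 5 was 0.14 in strain 13 and 0.61 in SS, against 0.01 and -0.01 over all 1287 and 1310 probes tested. In strain 13 none of the 5 passed the fit over all probes, where 0% of probes passed (0 of 1287 by limma at an adjusted p of 0.05, with 119 at an unadjusted p below 0.05). In SS all 5 were among the 24 probes called higher, which are 1.83% of 1310 (2.82% were called in either direction, 0.992% lower). The genes were picked by this comparison, so nothing is read from that count. Without replicate 2 or without replicate 3 of SS, none of the 5 passed there.

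Timp1, the metalloproteinase inhibitor, had ratios of 0.095, 0.41 and 0.345 in replicates 1 to 3 of strain 13, against 0.605, 1.065 and 1.05 in SS. All strain 13 replicates lay below those of SS without overlap, as for Spp1 and Mgp and for 6.78% of the 1107 probes with all 6 replicates. The choice of the genes by their SS ratios favours this, so nothing is read from that share. The mean was 0.28 ± 0.17 in strain 13 and 0.91 ± 0.26 in SS (SD, n = 3 each), the fourth highest of all probes in SS. All 6 strain 13 arrays of Timp1 were above 0, as for 1.48% of the 880 probes with 6 values there. Its fitted mean in strain 13 had a 95% interval of -0.016 to 0.583 and did not pass (limma adjusted p = 0.571).

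Spp1, the integrin-binding matrix protein, had 0.26, 0.165 and -0.01 in strain 13, against 0.325, 0.495 and 0.375 in SS. The strains did not overlap, but the highest strain 13 replicate (0.26) was close to the lowest of SS (0.325). The mean was 0.14 ± 0.14 in strain 13 and 0.40 ± 0.09 in SS. In strain 13 the 95% interval was -0.031 to 0.308 (limma adjusted p = 0.623).

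Clu, the secreted chaperone, was the most variable of the 5 between replicates of a diet comparison. It had -0.19, 0.32 and 0.15 in strain 13, against 0.315, 0.75 and 1.07 in SS. Replicate 2 of strain 13 just exceeded replicate 1 of SS, so the strains overlapped. The mean was 0.09 ± 0.26 in strain 13 and 0.71 ± 0.38 in SS, with a 95% interval of -0.179 to 0.365 in strain 13 (limma adjusted p = 0.848).

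Mgp, the calcification inhibitor, had -0.045, 0.15 and 0.28 in strain 13, against 0.37, 0.70 and 0.755 in SS, with no overlap. The mean was 0.13 ± 0.16 in strain 13 and 0.61 ± 0.21 in SS. The 95% interval in strain 13 was -0.089 to 0.345 (limma adjusted p = 0.728). Vim, the mesenchymal filament, had 0.10, 0.03 and 0.28 in strain 13, against 0.20, 0.425 and 0.485 in SS. Its strains overlapped, since replicate 3 of strain 13 lay above replicate 1 of SS. The mean was 0.14 ± 0.13 in strain 13 and 0.37 ± 0.15 in SS, with a 95% interval of -0.032 to 0.306 in strain 13 (limma adjusted p = 0.625).

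In SS, all 6 arrays of each of the 5 genes were above 0, which held for 7.01% of the 785 probes with 6 values. Ratios above 0 in SS took part in the choice of the genes, so nothing is read from that share. Replicate 1 was the lowest of the 3 SS replicates for each gene. The same replicate stood apart in some lists of cell type markers and not in others. The 11 proximal tubule markers measured had a median of 0.24 there, against -0.46 and -0.44 in replicates 2 and 3. The 8 fibroblast and collagen markers had medians of -0.04, 0.29 and 0.48 in replicates 1 to 3, and the smooth muscle markers 0.02, 0.58 and 0.58. In the same order, medians were alike for thick ascending limb and distal tubule (-0.24, -0.23 and -0.28) and collecting duct (-0.1, -0.07 and -0.1). Those of the leukocyte markers were 0.11, 0.22 and 0.11. The part of these markers in the ratios of the 5 genes was not tested. Leaving out the SS array with the conflicting title gave means of 0.94 for Timp1, 0.48 for Spp1, 0.80 for Clu, 0.68 for Mgp and 0.35 for Vim.

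**Figure D1:**
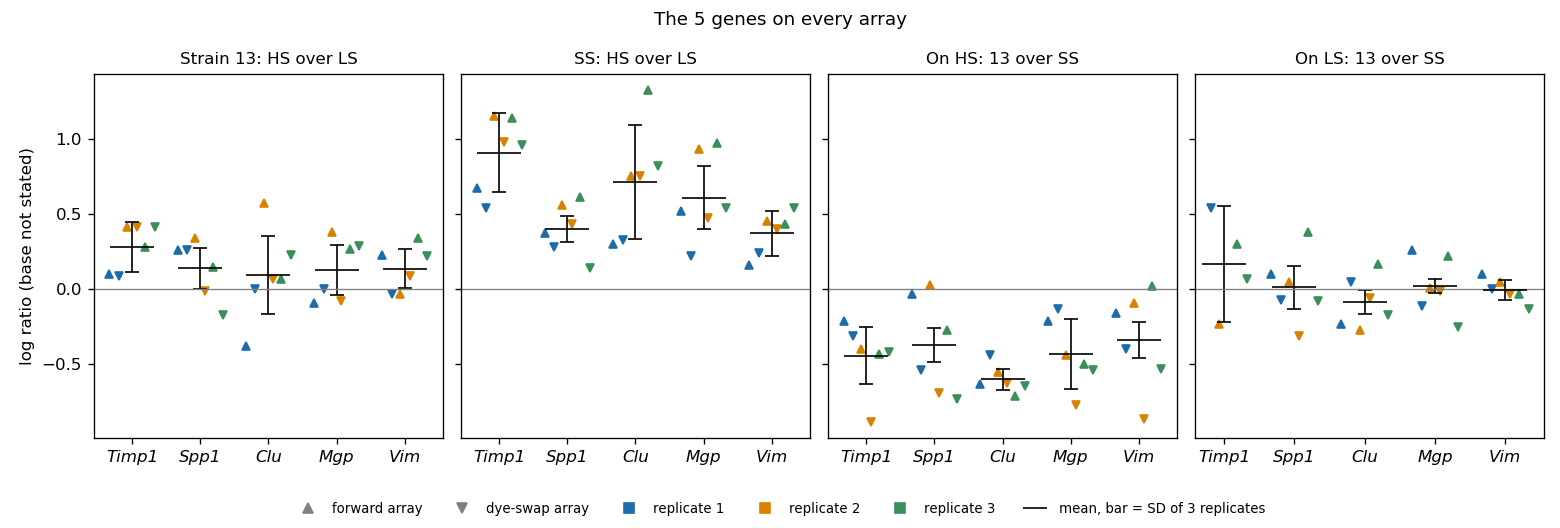
Log ratio (base not stated) of the 5 genes on each array, in 4 panels for the 4 comparisons; colours are replicates, upward triangles forward arrays, downward triangles dye-swap arrays, and the black bars the mean ± SD of 3 replicates. In SS all arrays lie above 0, with Timp1 reaching 1.15 and Clu 1.32, while in strain 13 the means lie between 0.09 and 0.28; on HS the means are between -0.60 and -0.34, and on LS they lie around 0.

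The strain comparisons ask how each transcript stands in strain 13 relative to SS on each diet. On HS all 5 genes had negative means, with a median of -0.43 against 0.02 over 1350 probes. On LS 3 were above and 2 below 0, with a median of 0.01 against 0.02 over 1229 probes. On HS 4 of the 5 (all but Timp1) were among the 32 probes called lower, which are 2.37% of the probes tested (6% were called in either direction, 3.63% higher). This comparison also took part in the choice of the genes, and nothing is read from the count. With any 1 HS replicate left out, none of the 5 passed, and with the replicate number as a block 40 probes were called in place of 81, without Mgp and Vim. Timp1, Clu and Mgp were below 0 on all 6 HS arrays, as were 4.82% of the 1057 probes with 6 values. The choice of the genes favours this too, so nothing is read from that share. On LS none of the 5 passed, where 0% passed (0 of 1229 by limma, with 268 at an unadjusted p below 0.05).

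Clu had the lowest mean on HS and the closest replicates. It had -0.535, -0.585 and -0.675 on HS, against -0.09, -0.165 and 0.00 on LS, with means of -0.60 ± 0.07 on HS and -0.09 ± 0.08 on LS. Timp1 had -0.26, -0.64 and -0.425 on HS, against 0.54, -0.23 and 0.185 on LS, with means of -0.44 ± 0.19 on HS and 0.17 ± 0.39 on LS. Its LS mean rests on 4 of 6 arrays: the forward array of replicate 1 and the dye swap of replicate 2 held no value, so a dye effect does not cancel in these replicates, which are its extremes. Without replicate 1 the LS mean of Timp1 was -0.02.

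Mgp had -0.17, -0.605 and -0.52 on HS, against 0.075, 0.00 and -0.015 on LS. The mean was -0.43 ± 0.23 on HS and 0.02 ± 0.05 on LS. Spp1 had -0.285, -0.33 and -0.50 on HS, against 0.015, -0.13 and 0.15 on LS. The mean was -0.37 ± 0.11 on HS and 0.01 ± 0.14 on LS. Vim had -0.28, -0.475 and -0.255 on HS, against 0.05, 0.01 and -0.08 on LS, with means of -0.34 ± 0.12 on HS and -0.01 ± 0.07 on LS. For each of the 5 genes the HS replicates lay below the LS replicates without overlap, which held for 7.83% of the 1047 probes with all 6 values. Ratios below 0 on HS took part in the choice of the genes, so nothing is read from that share.

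On LS the 95% intervals of the fitted means bound the strain difference. They ran from -0.357 to 0.187 for Clu, from -0.197 to 0.237 for Mgp, from -0.158 to 0.181 for Spp1 and from -0.176 to 0.162 for Vim. The widest was that of Timp1, from -0.135 to 0.465. The fit shares 1 estimate of the spread over the 4 comparisons, which gave Timp1 an SE of 0.14. Its own LS replicates ran from -0.23 to 0.54, with an SD of 0.39. Its interval may therefore be too narrow and is not taken to bound its strain difference. The limma adjusted p-values on LS lay between 0.494 for Timp1 and 0.965 for Vim. The proximal tubule markers were below 0 on both diets, with 11 of 11 means below 0 and medians of -0.44 on HS and -0.36 on LS. The replicates were not alike in this. In replicates 1 to 3 the medians were -0.82, -0.04 and -0.52 on HS and -0.51, -0.13 and -0.5 on LS. In replicate 2, 4 of the 11 markers were above 0 on each diet. The part of the tubule markers in the HS ratios was not tested.

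Forward and dye-swap arrays gave like values for some of the genes and not for others. On HS, Spp1 averaged -0.09 on forward arrays and -0.65 on dye-swap arrays, and Vim -0.08 and -0.60. On forward arrays alone neither of them was far from 0. Clu had -0.63 and -0.57, Mgp -0.38 and -0.48, and Timp1 -0.35 and -0.54 in the same order. In the SS diet comparison, forward arrays averaged between 0.35 (Vim) and 0.99 (Timp1) and dye-swap arrays between 0.28 (Spp1) and 0.83 (Timp1), so both orientations were above 0 for each gene. The mean over both orientations was used throughout. Without the dye swap of replicate 2 on HS, whose Timp1 value was the lowest, the HS means were -0.36 for Timp1, -0.25 for Spp1, -0.59 for Clu, -0.38 for Mgp and -0.21 for Vim. Replicate 2 then holds its forward array alone, so a dye effect no longer cancels there. For Spp1 this array was not unusual, with dye swaps of -0.54, -0.69 and -0.73 in replicates 1 to 3. The array and the dye effect cannot be told apart in these means.

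**Figure D2:**
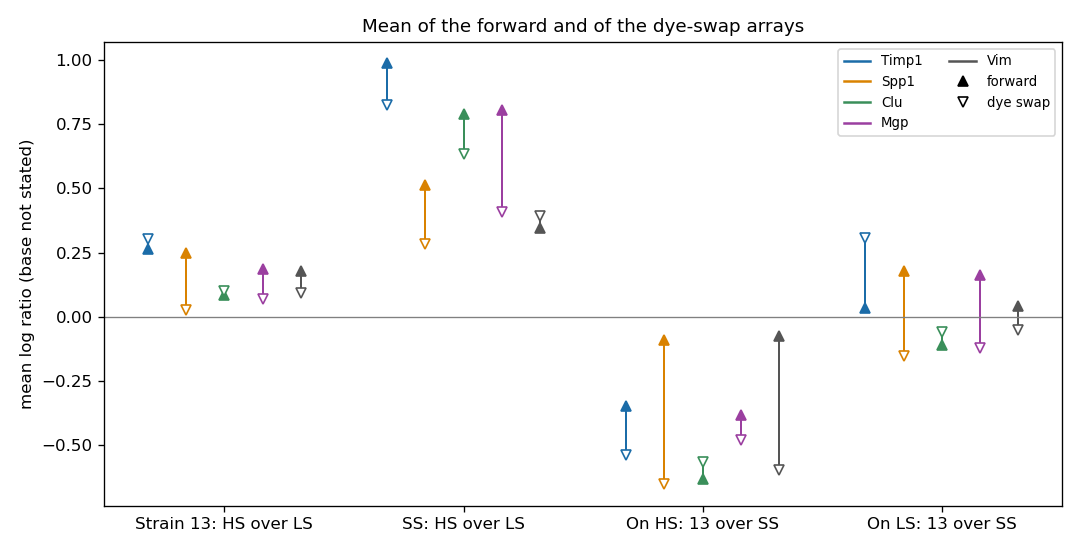
Mean log ratio (base not stated) of the 3 forward arrays (filled triangles) and the 3 dye-swap arrays (open triangles) of each gene in each comparison, joined by a line; Timp1 on LS has 2 arrays of each orientation. Spp1 and Vim on HS span from about the zero line on forward arrays (-0.09 and -0.08) to -0.65 and -0.60 on dye-swap arrays.

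The 4 comparisons close a loop, so the SS diet ratio can also be computed without the SS diet arrays, as the strain 13 diet ratio plus the LS strain ratio minus the HS strain ratio. For Timp1 this gave 0.89 from the other 18 arrays, against 0.91 from the SS diet arrays. It gave 0.52 for Spp1, against 0.40 directly. For Clu it gave 0.61, against 0.71, for Mgp 0.58, against 0.61, and for Vim 0.47, against 0.37. The genes were chosen by ratios above 0 in SS and below 0 on HS. Both choices favour positive values, directly and indirectly, so nothing is read from their likeness. The titles give the SS RNAs of replicate 3 the same codes on the SS diet and the strain arrays, so the direct and the indirect values share RNA there. The other diet titles name no RNA, so sharing in replicates 1 and 2 is not known. Deviations from the comparison mean correlated between SS diet and strain on HS at -0.63 and -0.56 there, and at -0.29 in replicate 3. The direct and indirect values are therefore not taken as independent.

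**Figure D3:**
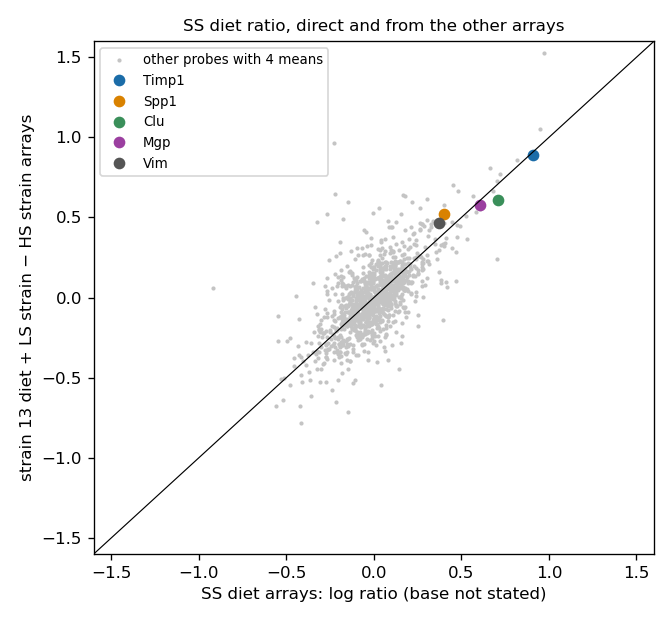
Log ratio (base not stated) of HS over LS in SS, computed from the strain 13 diet, LS strain and HS strain arrays (vertical axis) against the SS diet arrays (horizontal axis), for all probes with 4 means (grey) and the 5 genes (colours), with the line of equality. The 5 genes lie near the line, from 0.37 and 0.47 for Vim to 0.91 and 0.89 for Timp1. Their choice by the SS diet and HS strain ratios favours positive values on both axes.

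The difference between the strains in the diet ratio, 13 minus SS, was taken as the mean of the diet-array and strain-array estimates. It was -0.62 for Timp1 (SE 0.14), -0.57 for Clu (SE 0.12), -0.47 for Mgp (SE 0.10), -0.32 for Spp1 (SE 0.08) and -0.28 for Vim (SE 0.08). The standard errors are those of the fit, which takes the 12 pairs as independent although some share RNA. These estimates reuse the comparisons that chose the genes, so no test of the 5 is drawn from them. In the fit over all probes 5 of 1164 passed (0.43%), and the alternatives gave between 0 and 25 (2.15%, with the spread estimated from the tested probes alone, chosen after seeing the data).

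In replicate 3, the strain arrays of HS and LS carry the same unexplained text in their titles. Within this replicate, HS minus LS of the strain ratio was -0.61 for Timp1, -0.65 for Spp1, -0.675 for Clu, -0.505 for Mgp and -0.175 for Vim. In replicates 1 and 2 that text differs between the diets, so that what it marks and the diet cannot be told apart there.

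The 5 genes kept similar places over the 12 RNA pairs. Pearson's r between any pair of them lay between 0.84 (Spp1 and Vim) and 0.96 (Clu and Mgp, and Vim and Mgp). Most of this comes from the differences between the comparisons. Because the genes were chosen by their SS diet and HS strain ratios, a high r among them was favoured in advance. After the mean of each comparison was taken off, r was 0.73 for Vim and Mgp, 0.70 for Clu and Mgp, 0.69 for Timp1 and Mgp, 0.60 for Clu and Timp1, 0.51 for Timp1 and Vim and 0.41 for Clu and Vim. Spp1 varied apart from the others within comparisons, with 0.28 with Timp1, 0.12 with Clu, 0.03 with Mgp and -0.32 with Vim. These are descriptions over 12 pairs that share RNAs, dyes and an array design.

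Among 861 other named probes with a value in every pair, those most like Vim were Col3a1 (r = 0.98), Col2a1 and Col1a1 (0.96 each), which encode fibrillar collagens. Mgp was most like Col1a1 and Col3a1 (0.97 each) and Tagln (0.96), which binds actin in smooth muscle cells. Timp1 was most like Col1a1, Col2a1 and Tspan8 (0.96 each), and Spp1 like Col3a1, Timp1 and Ceacam4 (0.89 each). Clu stood nearest to Tnnt2, cardiac troponin T, and Tsc22d1 (0.97 each) and to Csnk2b (0.96), a subunit of casein kinase. The collagen Col3a1 had 0.34 ± 0.14 in strain 13 and 0.82 ± 0.32 in SS for diet, and -0.43 ± 0.24 on HS and 0.09 ± 0.10 on LS for strain. Running opposite were Egf, made in the distal tubule, for Mgp (r = -0.96) and Timp1 (-0.94), Cnr1 for Vim (-0.96), Acsl1, which activates fatty acids, for Spp1 (-0.93) and Id1 for Clu (-0.92). Of all such probes, 95% had an r below 0.73 to 0.78, depending on the gene. The probes named are the extremes of the 861. Any probe high in SS and low on HS comes near genes chosen by those comparisons, so nothing is read from the size of r.

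**Figure D4:**
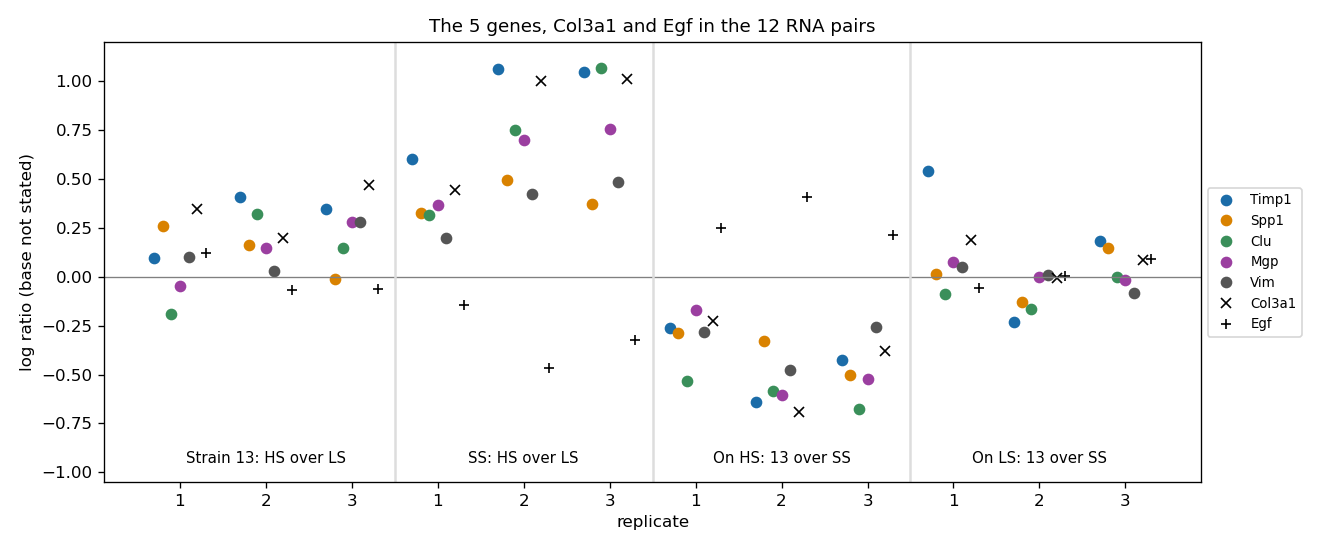
Log ratio (base not stated) of the 5 genes (dots), Col3a1 (x) and Egf (+) in the 12 RNA pairs, each the mean of a forward and a dye-swap array (Timp1 on LS has 1 array in replicates 1 and 2), with replicates 1 to 3 of each comparison side by side. The dots and Col3a1 are highest in SS and lowest on HS, and Egf lies on the opposite side of 0 in both.

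Genes with related roles were set beside the 5, in lists that leave the 5 out. The lists were chosen with earlier results of these data known, so their counts are a description and not a test. Over all probes, 53.8% of means were above 0 for diet in strain 13 and 47.9% in SS, and 54.7% for strain on HS and 55.2% on LS. The calls over all probes, against which each list is to be read, were 0% in strain 13, 1.83% higher and 0.992% lower in SS, 3.63% higher and 2.37% lower on HS and 0% on LS. Of the matrix proteases and their inhibitors, 17 of 35 were measured. In strain 13, 0 of 17 passed by diet (median 0.06), and in SS 0 of 16 passed as higher and 1 as lower (median 0.14 against -0.01 over all probes). The one lower in SS was Pcsk6, a proprotein convertase (-0.31 ± 0.11, limma adjusted p = 0.0314), which was also higher in strain 13 on HS (0.44 ± 0.11, adjusted p = 0.00889). Mmp2, a gelatinase that Timp1 can inhibit, had -0.01 ± 0.20 in strain 13 and 0.70 ± 0.50 in SS (limma adjusted p = 0.0583 in SS), with replicates that spread widely. A2m, a broad protease inhibitor, had 0.97 ± 0.50 in SS (limma adjusted p = 0.0926). On HS 2 of 17 passed as higher in strain 13, Pcsk6 and the convertase Furin (0.33 ± 0.14, limma adjusted p = 0.0391), and 1 as lower, Ctsl, a lysosomal protease (-0.39 ± 0.09, limma adjusted p = 0.0236). On LS 0 of 16 passed.

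Of the secreted matrix and mineral-binding proteins, 17 of 41 were measured, and 0 of 14 passed by diet in strain 13 and 0 of 16 in SS (medians 0.02 and 0.17). Eln, elastin, had -0.04 ± 0.35 in strain 13 and 0.61 ± 0.45 in SS (limma adjusted p = 0.0954 in SS), and Bmp4, a growth factor of the bone morphogenetic family, had -0.30 ± 0.14 in SS (limma adjusted p = 0.0917). On HS 1 of 14 passed, Igfbp5, which binds insulin-like growth factors, as higher in strain 13 (0.60 ± 0.45, limma adjusted p = 0.0487). On LS 0 of 12 passed. Sparc, a collagen-binding matrix protein, had 0.08 ± 0.15 in strain 13 and 0.17 ± 0.06 in SS for diet.

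Of the receptors and binding partners, 7 of 25 were measured and 0 passed in any of the 4 comparisons. Cd44, a receptor of osteopontin, had a diet ratio of 0.15 ± 0.11 in strain 13 and -0.04 ± 0.05 in SS. Itgb1, an integrin chain, had 0.03 ± 0.11 in strain 13 and 0.07 ± 0.14 in SS. Cd63, a binding partner of TIMP-1, had -0.10 ± 0.05 in strain 13 and 0.12 ± 0.08 in SS. Lrp2, megalin, which takes up clusterin in the proximal tubule, had -0.43 ± 0.14 in strain 13 and -0.21 ± 0.55 in SS, and Itga1, a collagen receptor chain, had 0.19 ± 0.03 in SS.

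Of 6 chaperones measured, 0 passed in any comparison, and the median diet ratio was -0.07 in strain 13 and 0.01 in SS. Serpinh1, the collagen chaperone, had -0.09 ± 0.15 in strain 13 and 0.36 ± 0.16 in SS (limma adjusted p = 0.0502 in SS), and Pdia3, a disulfide isomerase, -0.23 ± 0.25 in SS. Of 5 intermediate filaments and partners measured, 0 passed, with Lmnb1, a nuclear lamin, at 0.23 ± 0.30 and Plec, a filament linker, at 0.17 ± 0.22 in SS.

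Of 28 other genes known to rise in injured kidney, 14 were measured. By diet, 0 of 11 passed in strain 13 (10 above 0, median 0.15), and in SS 3 of 11 passed as higher with 11 above 0 (median 0.28), against 1.83% called higher and 47.9% above 0 over all probes. Mt2A, a metallothionein, had 0.22 ± 0.13 in strain 13 and 0.47 ± 0.13 in SS (limma adjusted p = 0.0162 in SS). Cyba, a subunit of NADPH oxidase, had -0.00 ± 0.07 in strain 13 and 0.38 ± 0.20 in SS (limma adjusted p = 0.039 in SS). Cp, ceruloplasmin, had 0.24 ± 0.14 in strain 13 and 0.34 ± 0.13 in SS (limma adjusted p = 0.0483 in SS). Hmox1, heme oxygenase, had 0.49 ± 0.21 in SS and did not pass (limma adjusted p = 0.0617). On HS 1 of 13 passed, C3, the central complement protein, as lower in strain 13 (-0.37 ± 0.07, limma adjusted p = 0.0288), with 11 of 13 below 0 (median -0.19), against 2.37% called lower and 44.9% below 0 over all probes. On LS 0 of 10 passed (median -0.04). Since earlier results were known when this list was chosen, its counts may have been favoured in advance, and nothing is read from their excess.

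Markers of cell types moved in part with the 5 genes. Of the fibroblast and fibrillar collagen markers, 0 of 7 passed by diet in strain 13 (median 0.19) and 2 of 8 in SS as higher, Col1a1 and Col3a1 (median 0.23), with means in SS from -0.29 to 0.95. Of the smooth muscle markers, 0 of 4 passed in strain 13 (median 0.11) and 1 of 5 in SS, Tagln (median 0.30), where Tpm2, a tropomyosin, had 0.49 ± 0.24. On HS 0 of 8 fibroblast markers (median -0.10) and 0 of 6 muscle markers (median -0.26) passed, and on LS 0 of 7 (median -0.13) and 0 of 4 (median 0.05). Of the leukocyte markers 0 of 5 passed in SS (median 0.22), with Fcgr2b, an Fc receptor, at 0.50 ± 0.18 and Cd37 at 0.36 ± 0.30 (n = 2 each). Lyz2, lysozyme of macrophages, had -0.125 ± 0.81 there, and 4 of the 5 were above 0. On HS 1 of 5 passed, Lyz2, as lower in strain 13 (-1.51 ± 0.83, limma adjusted p = 0.0321). On HS 3 of 11 proximal tubule markers passed as lower: Cyp2c23 (-1.19 ± 0.63), Gatm (-1.03 ± 0.55) and Cyp2e1 (-0.67 ± 0.39), against 2.37% of all probes; all 3 were negative on LS too. As higher passed 3 of 4 collecting duct markers, Fxyd4 (0.50 ± 0.11), Scnn1a (0.38 ± 0.05) and Aqp3 (0.35 ± 0.07), and 1 of 3 thick ascending limb and distal tubule markers, Egf (0.29 ± 0.10), against 3.63% of all probes. On LS 0 of 11 proximal markers (median -0.36), 0 of 4 collecting duct markers (4 above 0, median 0.25) and 0 of 3 distal ones (median 0.01) passed. By diet, 0 of 11 proximal markers passed in strain 13 (10 below 0, median -0.36) and 0 of 11 in SS (10 below 0, median -0.20, Dpp4 at -0.35 ± 0.34). Of the duct markers 0 of 4 passed by diet in strain 13 (median 0.06) and in SS (median -0.08), and of the distal ones 0 of 3 in each (Umod at -0.13 ± 0.08 in strain 13 and -0.25 ± 0.03 in SS). Passing as higher on HS was also the 1 endothelial marker measured, Kdr (0.32 ± 0.12, limma adjusted p = 0.0241). Of fat and red cell markers, 0 passed in the 4 comparisons (in SS, Hbb at -0.08 ± 0.05 and Fabp4 at -0.08 ± 0.15). Without replicate 2 or replicate 3 of SS, and without replicate 1 of HS, limma called 0 probes in that comparison, so no call on a list named here remained in those fits. The part of these markers in the ratios of the 5 genes was not tested.

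**Figure D5:**
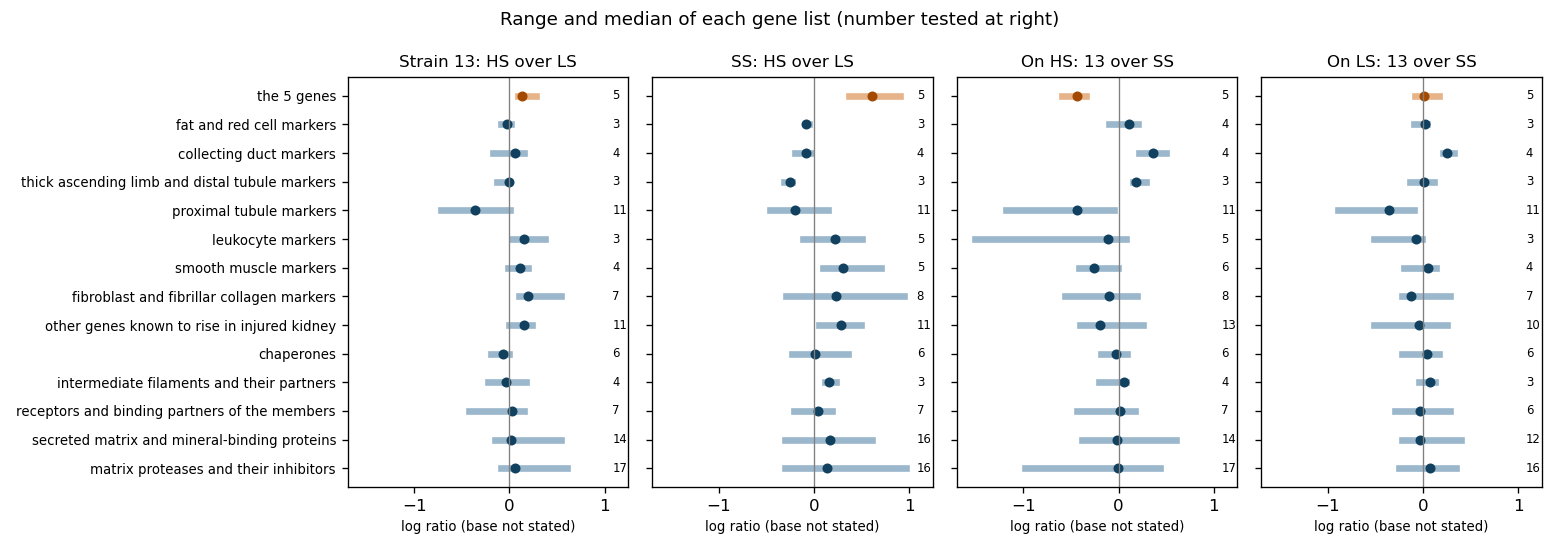
Range (bars) and median (dots) of the mean log ratios (base not stated) of each gene list in the 4 comparisons, with the number of genes tested at the right and the 5 genes on top; the endothelial list, of 1 gene, is left out. In SS the 5 genes span 0.37 to 0.91 (median 0.61), and the smooth muscle (0.30) and injury (0.28) lists have the next highest medians; on HS the 5 genes (median -0.43) and the proximal tubule markers (-0.44) lie furthest below 0.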

How the data were processed

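Transcript ratios of rat kidney were measured on 24 arrays. The authors deposited log ratios of the 2 channels; no source used here states their log base, background correction, spot filter or normalization. Array means lay within 0.0049 of 0, and the ratios were used as deposited. Probe names came from GEO's platform annotation; symbols were brought up to date through gene IDs in RefSeq's table for GRCr8: of 1561 probes with a value, 1311 got 1 updated symbol, 5 kept the platform symbol, 22 had several and 223 none. Arrays held 726 to 1402 values; the number of arrays limits the precision.

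The relative signs were checked on the loop of comparisons. Strain 13 minus SS of the diet ratio correlated across 1006 probes with HS minus LS of the strain ratio (r = 0.65; genes are not independent replicates), against -0.23 to 0.23 with 1 group's sign turned, -0.29 to 0.29 with a diet and a strain group turned and -0.65 with both diet or both strain groups turned, so the 4 groups were taken to run as labelled. A turn of all signs at once leaves r as it is.

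The 2 arrays of a replicate were averaged, giving 12 pairs. limma 3.58.1 in R 4.3.3 (lmFit, eBayes) fitted 4 group means to all probes; a probe was tested against 0, two-sided, where at least 2 replicates had a value, with Benjamini-Hochberg adjustment over all tested probes at 0.05. The fit was tested on simulated data. The genes named are the 5, for each the 3 most and 1 least correlated named probes, list genes called in any comparison and otherwise the 2 of each list furthest from 0 in SS; Sparc, Cd44, Itgb1 and Cd63 were named after their values were seen. The 5 genes and the lists were chosen with earlier results of these data known. Alternatives left out replicates, single arrays or an orientation, blocked by replicate number, rescaled or centred arrays, or changed which probes or pairs entered the fit.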

Additional observations from a re-analysis of the deposited data

Results flagged for a closer look

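On HS, 1 array stood apart for Timp1 in the strain comparison: the dye-swap array of replicate 2 had -0.88, the next lowest of the 6 arrays -0.43. The gap was 0.67 of the range, above the limit of 0.625 for 6 values. Of 20 sets of arrays examined (5 genes in 4 comparisons) this was the only 1, and chance alone would mark about 1 in 20. Without that array the mean of Timp1 on HS was -0.36.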

How the results depend on the processing

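The probe counts depended on the settings. The means of the 5 genes could not move under settings that changed only the estimate of the spread or the probes tested. These were the replicate block, the fit on own pairs, the demand for all replicates and the spread from tested probes. Counts and means are therefore not ranked by how far they moved. Leaving out a replicate gave 0 to 57 probes called for the SS diet comparison, 0 to 19 for strain on HS, 0 to 1 for strain on LS and 0 to 10 for the strain difference in diet change (called the difference below). For SS it was 57 without replicate 1 and 0 without replicate 2 or 3. With the replicate number as a block these were 40 for strain on HS and 8 for the difference; Mgp and Vim no longer passed on HS, and no other call of the 5 changed. Whether the numbers pair the samples is only partly known: titles give the SS RNAs of replicate 3 the same codes on diet and strain arrays. Same-numbered deviations correlated at -0.63, -0.56 and -0.29 between SS diet and strain on HS, which hold SS on HS on opposite sides of the ratio, at 0.21, 0.17 and 0.21 between the diet comparisons, and without a common sign between the other comparisons. A block allows only a shift of 1 sign in all comparisons. Fitted on their own pairs alone, SS diet, strain on HS and the difference each called 0, with limma. Arrays scaled to equal spread gave 23 for strain on LS, 13 for strain on HS and 0 for the difference. Forward arrays only gave 15 for the diet change in strain 13, 118 in SS, 70 for strain on LS, 127 on HS and 13 for the difference; dye-swap arrays only gave 3, 62, 51, 411 and 12 in the same order; a dye effect stays in such fits. The difference was called for 17 probes when all replicates were required, and 12 (SS diet 60) without the SS array with the conflicting title. Added after seeing the data, it was 2 without the LS strain array with the fewest values, 25 with the spread from the tested probes alone and 8 (strain on HS 46) without the HS array that held the lowest Timp1 value. The cause of these shifts was not tested.

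Of 305 values of the 5 genes under an alternative, 235 kept direction and side of the threshold, 45 no longer passed, 13 newly passed and 12 changed sign. Most of the 305 did not pass in the main fit and so could not be lost. Only the 5 genes in SS and all but Timp1 on HS could, so 305 is not the base for the 45. The sign changes were all of means near 0, on LS and for Clu in strain 13. On LS, Mgp was -0.0017 with median centring, -0.1233 on dye-swap arrays and -0.0417 without the sparsest array, Spp1 was -0.01, -0.1533 and -0.0167 in the same order, and Vim was 0.04 on forward arrays. Over left-out replicates, LS means ran from -0.0225 to 0.3625 for Timp1, -0.0575 to 0.0825 for Spp1, -0.0075 to 0.0375 for Mgp and -0.035 to 0.03 for Vim, and Clu in strain 13 from -0.02 to 0.235. In SS they ran from 0.83 to 1.06 for Timp1, 0.35 to 0.44 for Spp1, 0.53 to 0.91 for Clu, 0.54 to 0.73 for Mgp and 0.31 to 0.46 for Vim; without replicate 2 or without replicate 3 none of the 5 passed there. On HS they ran from -0.53 to -0.34 for Timp1, -0.42 to -0.31 for Spp1, -0.63 to -0.56 for Clu, -0.56 to -0.35 for Mgp and -0.38 to -0.27 for Vim, and none passed with any replicate left out.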

Other observations

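The Spp1 probe gave higher ratios on forward than on dye-swap arrays in all 4 comparisons, by 0.22 for diet in strain 13, 0.23 for diet in SS, 0.56 for strain on HS and 0.33 for strain on LS. Of the 1157 probes with both orientations in every comparison, 23.6% were higher on forward arrays throughout, and 45.1% had 1 sign throughout. The mean difference of Spp1, 0.34, was larger in size than that of 77.2% of these probes. Mgp also had 1 sign throughout (0.10 to 0.40), while Timp1 differed by -0.04 for diet in strain 13, 0.16 for diet in SS, 0.19 for strain on HS and -0.27 on LS (2 arrays of each orientation), and Clu by 0.16 for diet in SS and by -0.06 to -0.01 elsewhere. For Vim the difference was 0.52 for strain on HS and between -0.05 and 0.09 in the other comparisons.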
